A study of Mus musculus with 38 samples.

Results

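Kinesins, tubulins, centromere proteins, stathmins and cytoplasmic dynein subunits were followed in mouse spleen after cyclophosphamide, a nitrogen mustard that crosslinks DNA and hits proliferating cells hardest. The members were the array's probes that name a single gene whose symbol starts with Kif and a digit, Tuba, Tubb, Tubg, Cenp, Stmn, Ckap or Dync, with Tuba3a left out. There were 51 such probes for 51 genes, of 13443 probes in all, and none of them named a Tubg or Ckap gene. The array's single-gene probes named 9616 genes, of which 5925 were tested. A further 2 probes that list several alpha tubulin genes at once were not used. A member was tested when it had a value in 3 or more mice of each group, which 26 of the 51 did, as did 8319 probes of the whole array.

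Spleen cells came from 19 mice of the inbred strain DBA/2. The groups were 5 untreated mice and mice taken at day 1 (4 mice), day 2 (5 mice) and day 5 (5 mice) after cyclophosphamide at 83 mg/kg. Every treated mouse had the same drug and dose, given by intraperitoneal injection, and the mice carried no named transgene or mutation. No age of the mice is given in these sources. Each mouse was measured in 2 technical columns against a common reference, a pool of DBA/2 bone marrow cells. Some probes lacked a value in 1 of them: Kif22 had both columns in 13 of 16 mice, and Kif23 in 12 of 14. Each value below is the log2 ratio of spleen over the marrow pool, averaged over the columns with a value. The ratios are normalized, with array medians of -0.0212 to 0.0132. A ratio of 0 therefore means the same level as in the marrow pool relative to the array's typical probe. The pool cancels in a difference between spleen groups.

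Microtubules are polymers of alpha and beta tubulin, and the spindle that separates chromosomes in mitosis is built from them. Kinesins are motors that mostly walk toward the growing end of a microtubule, some moving chromosomes or sliding spindle microtubules and others hauling vesicles, while dyneins walk the opposite way. Centromere proteins sit on the chromosome and form the inner plate of the kinetochore, to which spindle microtubules attach, and stathmins bind free tubulin and destabilize microtubules. In the spleen of adult mice, dividing cells include red cell precursors, for the mouse spleen makes blood cells throughout life, and lymphocytes answering an antigen.

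Across the whole array, 5829 to 10407 values were present per technical column, and 63.2% of all values were present. The 2 columns of a mouse correlated with r of 0.581 to 0.962 over probes, under 0.7 in 3 mice. The mean log2 ratio of 6 probes for mature B cell genes was 0.12 to 0.71 in untreated mice, and that of 5 probes for T cell genes was 0.10 to 0.55. The B cell mean rested on Ms4a1 and Cd22, with untreated means of 1.57 and 1.47. On this normalized scale Cd79a was at 0.03, Blk at -0.03, Fcer2a at -0.16 and Cd72 at -0.68, near or below the marrow pool. In the limma fit over all probes with Benjamini-Hochberg adjustment, 8 of 13 probes for 11 red cell precursor genes fell at day 2, and 6 of 9 probes for replication genes fell. The mean of the red cell precursor probes lay between -2.13 and -1.02 at day 2, against -0.52 to -0.13 in untreated mice, and at day 1 it lay between -1.45 and -0.81. The replication probes averaged -1.23 to -0.63 at day 2, against -0.34 to 0.04 in untreated mice. At day 1 fewer probes were called, 5 of the 13 red cell precursor probes and 2 of the 9 replication probes. Probes of both lists were thus called on the days when members fell, with unlike counts at days 1 and 2. Their part in the results of the members was not tested. The other 5 red cell precursor probes, for Hba-a1, Gata1, Epor, Rhag and 1 of 2 Car2 probes, did not pass at day 2, with differences of -0.61 to 0.19, nor did the other 3 replication probes, for Mcm4, Mcm5 and Pola1 (-0.34 to 0.03). None of the 6 B cell, 5 T cell or 5 neutrophil probes passed in any comparison with untreated mice, while the macrophage marker Siglec1 rose at days 1 and 2 and Mrc1 at day 2, of 8 macrophage probes. Of 12 stroma and endothelium probes Col14a1 rose at days 1 and 2, and of 6 megakaryocyte and platelet probes Itga2b rose at days 2 and 5.

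Of the 26 tested members, 2 fell at day 1, Cenpk and Tubb4b, against untreated mice, in the limma fit with Benjamini-Hochberg adjusted p under 0.05. That is 7.69% of the members, and over all tested probes 2.33% were called at day 1 (1.39% fell and 0.938% rose). At day 2 there were 5 called members, 19.2% of those tested against 8.31% of all probes: Cenpk, Tubb4b, Cenpu and Kif22 fell and Dync2h1 rose. Over all probes 5% fell and 3.31% rose at day 2. At day 5 limma called no member against untreated mice, with 2 members at an unadjusted p under 0.05, and 0.0721% of all probes were called (0.024% fell and 0.0481% rose). Between day 2 and day 1 limma likewise called no member, with 2 at an unadjusted p under 0.05 and 0.0601% of all probes called. At day 5 against day 2, Cenpk alone rose, 1 of 26 members beside 5.3% of all probes called in either direction, 3.8% that rose and 1.5% that fell. The comparisons at days 1, 2 and 5 share the untreated mice, and day 2 is shared by the last pair.

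The change of the typical member was near 0. The median log2 difference over the 26 members was 0.02 at day 1, -0.05 at day 2 and -0.02 at day 5 against untreated mice, and over all tested probes it was 0.02, 0.007 and 0.01. At day 1 every treated mouse lay below every untreated mouse in 5 members (Kif1a, Cenpk, Kif11, Cenpu and Tubb4b), and 4.08% of all probes did so. At day 2 this held for 4 members (Kif1a, Cenpk, Tubb4b and Kif23) and 4.98% of all probes, and every treated mouse lay above every untreated mouse in 1 member, Dync2h1, and in 3.86% of all probes. At day 5 no member was apart from the untreated mice in either direction, where 0.914% of all probes were below and 0.673% above. At day 5 against day 2, 4 members (Tuba3b, Cenpk, Cenpm and Kif23) lay above throughout, beside 4.8% of all probes. The fitted spread between mice of a group had a median SD of 0.27 over the members and 0.26 over all probes (log2). Technical columns of some members agreed poorly, with r over mice of -0.20 for Stmn2, -0.05 for Kif17, 0.19 for Kif3c and 0.23 for Cenpx. Among members whose groups lay apart, r was 0.35 for Kif1a, 0.36 for Kif23 and 0.42 for Tuba3b. For Tubb2b and Tubb3 it was 0.94 and 0.92. Where columns agreed poorly, a difference near 0 cannot tell an unchanged RNA from a weakly measured one.

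**Figure D1:**
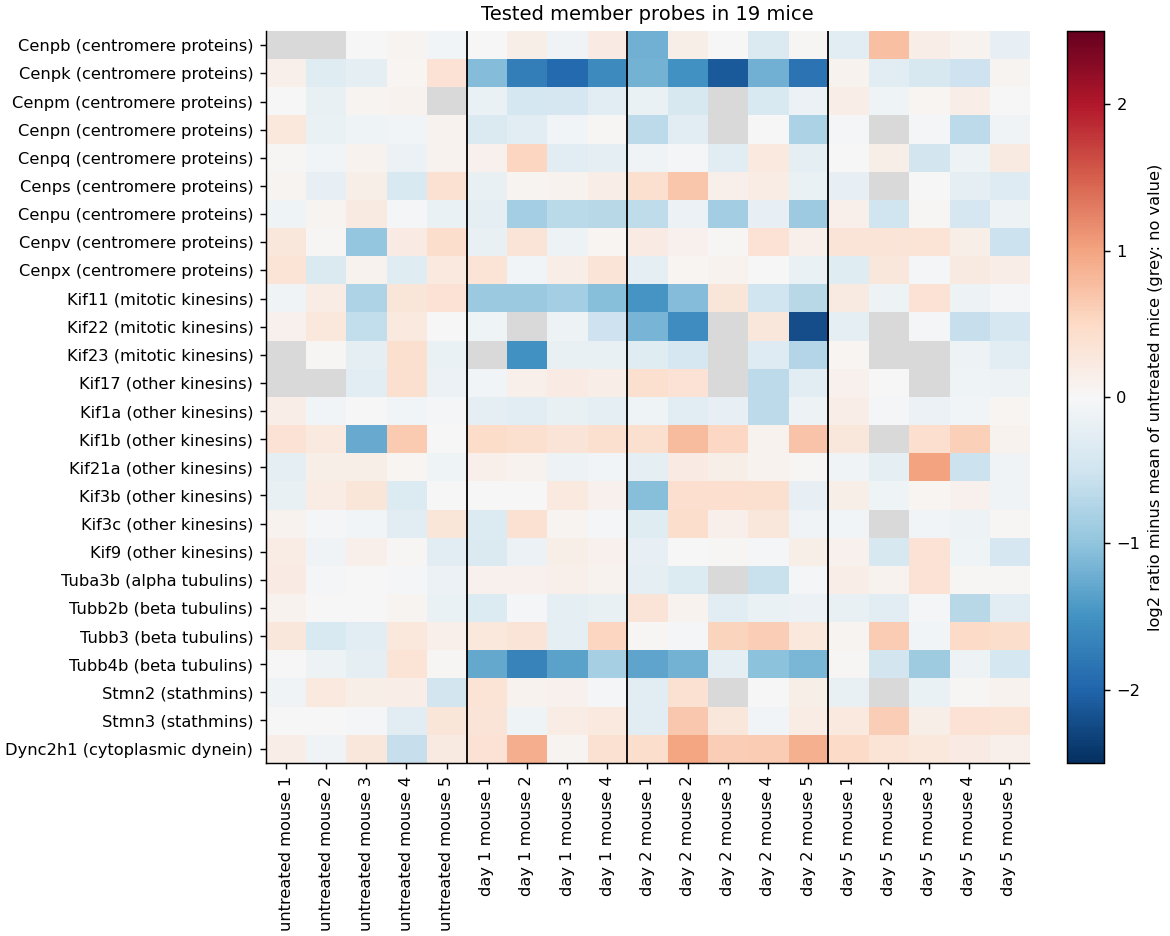
Log2 ratio of each tested member (down the page, 26 probes ordered by role) in each of the 19 mice (across, untreated to day 5), with the mean of the untreated mice subtracted. Blue is lower, red is higher and white is near 0, and grey cells have no value. Cenpk and Tubb4b are low in nearly every mouse of days 1 and 2, while most of the other kinesins, stathmins and tubulins stay near 0.

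The centromere proteins made up 13 members, and 9 were tested. Cenpk had the largest fitted difference of the 26 tested members at days 1 and 2; it encodes a subunit of the inner kinetochore complex that holds CENP-H, CENP-I, CENP-K and CENP-M. Its log2 ratios were 0.09, -0.34, -0.28, 0.01 and 0.32 in untreated mice. At day 1 they were -1.12, -1.77, -1.99 and -1.64, and at day 2 they were -1.23, -1.56, -2.14, -1.25 and -1.89. All 9 of these mice were lower than any untreated mouse, the highest of them at -1.12 and the lowest untreated mouse at -0.34. At day 5 the values were 0.04, -0.31, -0.43, -0.56 and 0.03, within or just under the untreated range.

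Cenpk was thus lower by a log2 difference of -1.59 ± 0.21 (SE, 3.01-fold, limma adjusted p = 0.000137) at day 1 and of -1.57 ± 0.20 (2.97-fold, adjusted p = 2.31e-05) at day 2, both against untreated mice. At day 5 its difference from untreated mice was -0.20 ± 0.20 (adjusted p = 0.952), with a 95% interval of -0.62 to 0.21. At day 5 against day 2 it rose by 1.37 ± 0.20 (2.58-fold, adjusted p = 0.000166), and every day 5 mouse lay above every day 2 mouse. In bulk spleen samples, fewer cells that hold an RNA and less of that RNA per cell cannot be told apart, and this holds for each result here. The 2 technical columns of Cenpk agreed closely, with a median difference of 0.0446 within a mouse. Cenpk kept its calls in every alternative tried, with day 2 differences of -1.77 to -1.21.

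Cenpu encodes a subunit of the neighbouring CENP-O, CENP-P, CENP-Q and CENP-U complex, which in human cells helps bring the mitotic kinase PLK1 to the kinetochore. Its log2 ratios were -0.17, 0.01, 0.15, -0.10 and -0.22 in untreated mice, -0.31, -0.92, -0.74 and -0.75 at day 1, and -0.70, -0.21, -0.94, -0.28 and -0.97 at day 2. All day 1 mice lay below the untreated mice, and at day 2 a single mouse, at -0.21, overlapped them. The difference from untreated mice was -0.61 ± 0.18 at day 1, short of the threshold (limma adjusted p = 0.0756), and at day 2 Cenpu fell by 0.55 ± 0.17 on the log2 scale (1.47-fold, adjusted p = 0.0459). That call was close to the threshold and was lost in 11 of the 19 fits that left out 1 mouse, in which the adjusted p passed 0.05 while the direction held. It was also lost in 8 of the 13 other alternatives, among them quantile normalization, a replicate block and only the groups compared. At day 5 the values were 0.06, -0.57, -0.04, -0.48 and -0.20, with a difference of -0.18 ± 0.17 (adjusted p = 0.947).

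The other 7 tested centromere proteins passed in no comparison. Cenpm, a partner of Cenpk in the same complex, differed from untreated mice by -0.32 ± 0.12 at day 1 (adjusted p = 0.218) and -0.28 ± 0.12 at day 2 (adjusted p = 0.202). Cenpn, whose product reads the centromeric nucleosome, differed by -0.43 ± 0.17 at day 2 (adjusted p = 0.157). Cenpq, a direct partner of Cenpu, differed by -0.07 ± 0.16 at day 2, with a 95% interval of -0.40 to 0.26. The day 2 differences of Cenpk, Cenpm, Cenpu and Cenpq were not tested against each other. Cenps and Cenpx, histone-fold proteins that also act with the Fanconi anaemia pathway in DNA repair, differed by 0.25 ± 0.16 and -0.05 ± 0.15 at day 2. Cenpb binds a repeat motif in centromeric DNA, and its difference at day 2 was -0.28 ± 0.26 with 3 untreated mice measured. Across the 9 probes the day 2 differences ran from -1.57 to 0.25 with a median of -0.28.

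**Figure D2:**
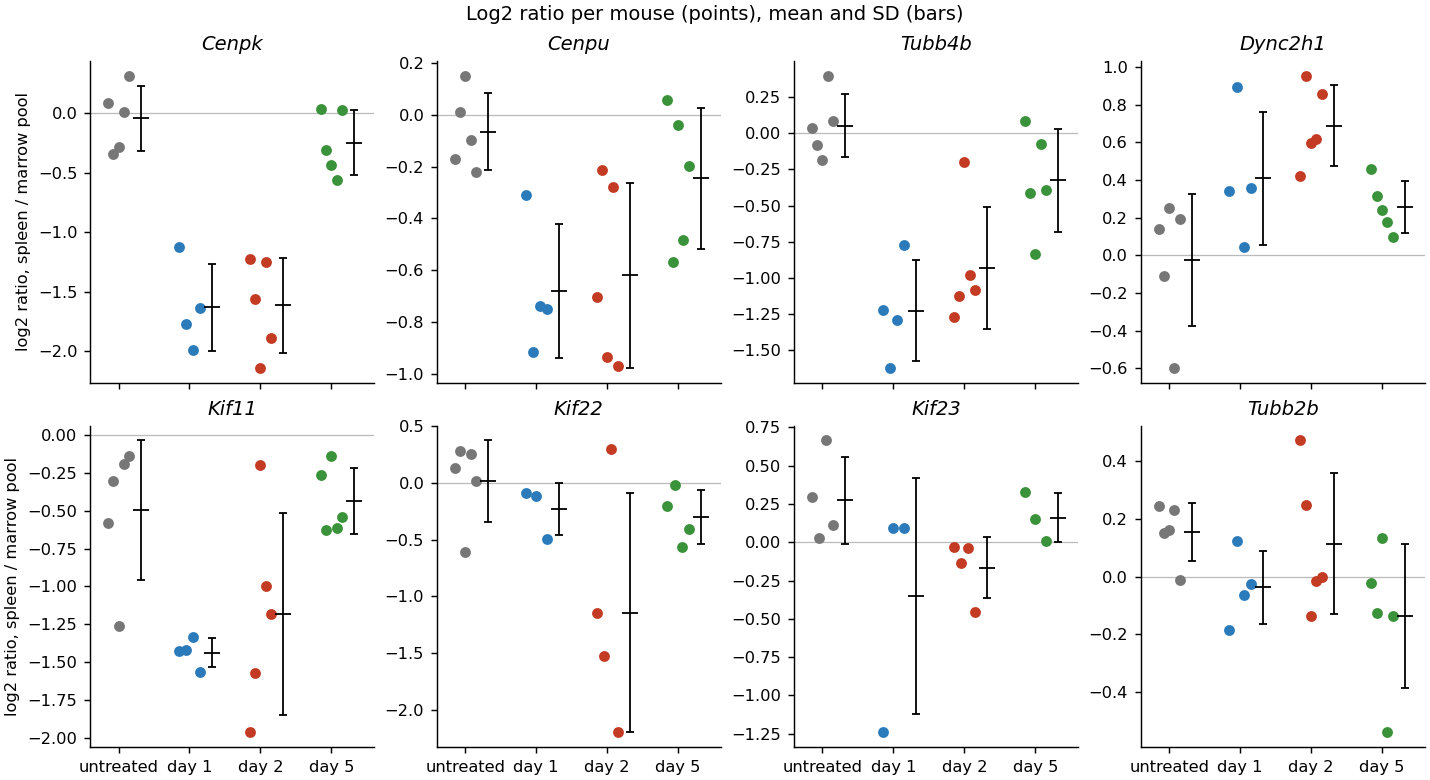
Log2 ratio of spleen over the marrow pool in each mouse (points) with the group mean and SD (bars) for 8 members, from untreated to day 5. Cenpk lies between -2.14 and -1.12 at days 1 and 2 and between -0.56 and 0.04 at day 5, Dync2h1 lies above all untreated mice at day 2, and Tubb2b overlaps among all groups.

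Mitotic kinesins numbered 6, of which Kif11, Kif22 and Kif23 were tested. Kif11 encodes the motor that slides antiparallel microtubules apart to set up the bipolar spindle. Its log2 ratios were -0.58, -0.30, -1.26, -0.19 and -0.14 in untreated mice, -1.43, -1.42, -1.33 and -1.56 at day 1, -1.97, -1.57, -0.19, -0.99 and -1.18 at day 2, and -0.26, -0.62, -0.14, -0.61 and -0.54 at day 5. The day 1 mice were all lower than the untreated ones, by little next to untreated mouse 3 at -1.26. The difference was -0.94 ± 0.27 at day 1 (limma adjusted p = 0.0651) and -0.69 ± 0.25 at day 2 (adjusted p = 0.103), neither past the threshold. At day 5 it was 0.06 ± 0.25 from untreated mice (adjusted p = 0.990) and 0.75 ± 0.25 from day 2 mice (adjusted p = 0.0928). Without day 2 mouse 3 the latter was 0.99 and passed (adjusted p = 0.0103).

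The calls of Kif11 turned on a few mice and settings. Without untreated mouse 3 its adjusted p was 0.0198 at day 1 and 0.029 at day 2, and without day 2 mouse 3, at -0.19, it was 0.0217 at day 1 and 0.0111 at day 2. Without day 2 mouse 1, at -1.97, the day 1 value was 0.0371. The day 1 difference also passed with quantile normalization (adjusted p = 0.0147), array weights (0.0212), only the groups compared (0.0383) and probes with a value in every mouse (0.0461). Its technical columns agreed less well than those of Cenpk, with a median difference of 0.402 within a mouse, the widest of the 26 members.

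Kif22, a motor that binds chromosome arms and pushes them toward the middle of the spindle, fell at day 2. Its log2 ratios were -1.15, -1.53, 0.30 and -2.20 in the 4 day 2 mice with a value, against 0.13, 0.28, -0.61, 0.26 and 0.02 in untreated mice. Among the day 2 mice 3 lay below all untreated mice and 1, day 2 mouse 4, lay above them. The day 2 difference was -1.16 ± 0.34 (2.23-fold, limma adjusted p = 0.0423). Leaving out 1 mouse removed the call in 13 of 19 fits, and over all 19 the difference ran from -1.64 without day 2 mouse 4 to -0.81 without day 2 mouse 5. Of 11 other alternatives, 7 also removed the call. At day 1 the 3 mice with a value were at -0.09, -0.11 and -0.49 and the difference was -0.25 ± 0.37 (adjusted p = 0.863). At day 5 the values were -0.21, -0.02, -0.57 and -0.41, a difference of -0.32 ± 0.34 from untreated mice (adjusted p = 0.960). From day 2 mice the difference was 0.84 ± 0.36 (adjusted p = 0.210), and without day 2 mouse 4 it was 1.32 and passed (adjusted p = 0.00457).

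Kif23 encodes the motor of the centralspindlin complex, which builds the midzone where a dividing cell is pinched apart. Its values were -0.03, -0.14, -0.04 and -0.45 in 4 day 2 mice, against 0.30, 0.03, 0.67 and 0.11 in 4 untreated mice. These averages over columns did not overlap. Its technical columns agreed poorly, with r of 0.36 over mice, and the day 2 value of -0.03 averaged -0.58 and 0.51. In technical column 2 alone the groups overlapped, with day 2 mouse 1 at 0.51 and untreated mouse 2 at 0.38. The day 2 difference of -0.44 ± 0.25 did not pass (adjusted p = 0.346). At day 1 Kif23 was at -1.24, 0.09 and 0.10, a spread wider than the difference of -0.63 ± 0.27 (adjusted p = 0.317). The value of -1.24 came from 1 technical column.

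Beta tubulins numbered 6, and the 3 tested ones differed in their values. Tubb4b, a beta tubulin isotype made in most tissues, had log2 ratios of 0.04, -0.08, -0.18, 0.40 and 0.09 in untreated mice, -1.22, -1.62, -1.29 and -0.77 at day 1, and -1.27, -1.12, -0.20, -0.98 and -1.09 at day 2. Every mouse of days 1 and 2 lay below every untreated mouse, although day 2 mouse 3, at -0.20, was next to the lowest untreated mouse at -0.18. At day 5 the values were 0.08, -0.41, -0.84, -0.08 and -0.39, which overlapped both the untreated and the day 2 mice. Tubb4b fell at day 1 (-1.28 ± 0.22, 2.42-fold, limma adjusted p = 0.00252) and at day 2 (-0.98 ± 0.20, 1.98-fold, adjusted p = 0.00398). Its difference at day 5 was -0.38 ± 0.20 from untreated mice, with a 95% interval of -0.80 to 0.05, and 0.60 ± 0.20 from day 2 mice (adjusted p = 0.0957). Without day 2 mouse 3 the difference between day 5 and day 2 passed, at 0.79 (adjusted p = 0.0173), as it did without day 5 mouse 3 (0.73, adjusted p = 0.0479).

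Tubb2b and Tubb3, the isotypes best known from neurons, passed in no comparison. Tubb2b differed from untreated mice by -0.04 ± 0.14 at day 2, with a 95% interval of -0.32 to 0.24, and by -0.29 ± 0.14 at day 5 (adjusted p = 0.923). Tubb3 differed by 0.28 ± 0.19 at day 2 (adjusted p = 0.415). Whether Tubb4b differed from these isotypes in its change was not tested. The single tested alpha tubulin, Tuba3b, which in mice is made mainly in the testis, differed by -0.29 ± 0.12 at day 2 against untreated mice (adjusted p = 0.182). Its 5 day 5 mice, at -0.01 to 0.32, lay above its 4 day 2 mice, at -0.60 to -0.06, and the difference of 0.42 ± 0.12 fell just short of the threshold (adjusted p = 0.0553). Without day 2 mouse 5 that difference was 0.51 (adjusted p = 0.0338). The technical columns of Tuba3b correlated at 0.42 over mice. In technical column 2 alone day 2 mouse 5, at 0.02, lay above day 5 mouse 4, at -0.13.

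**Figure D3:**
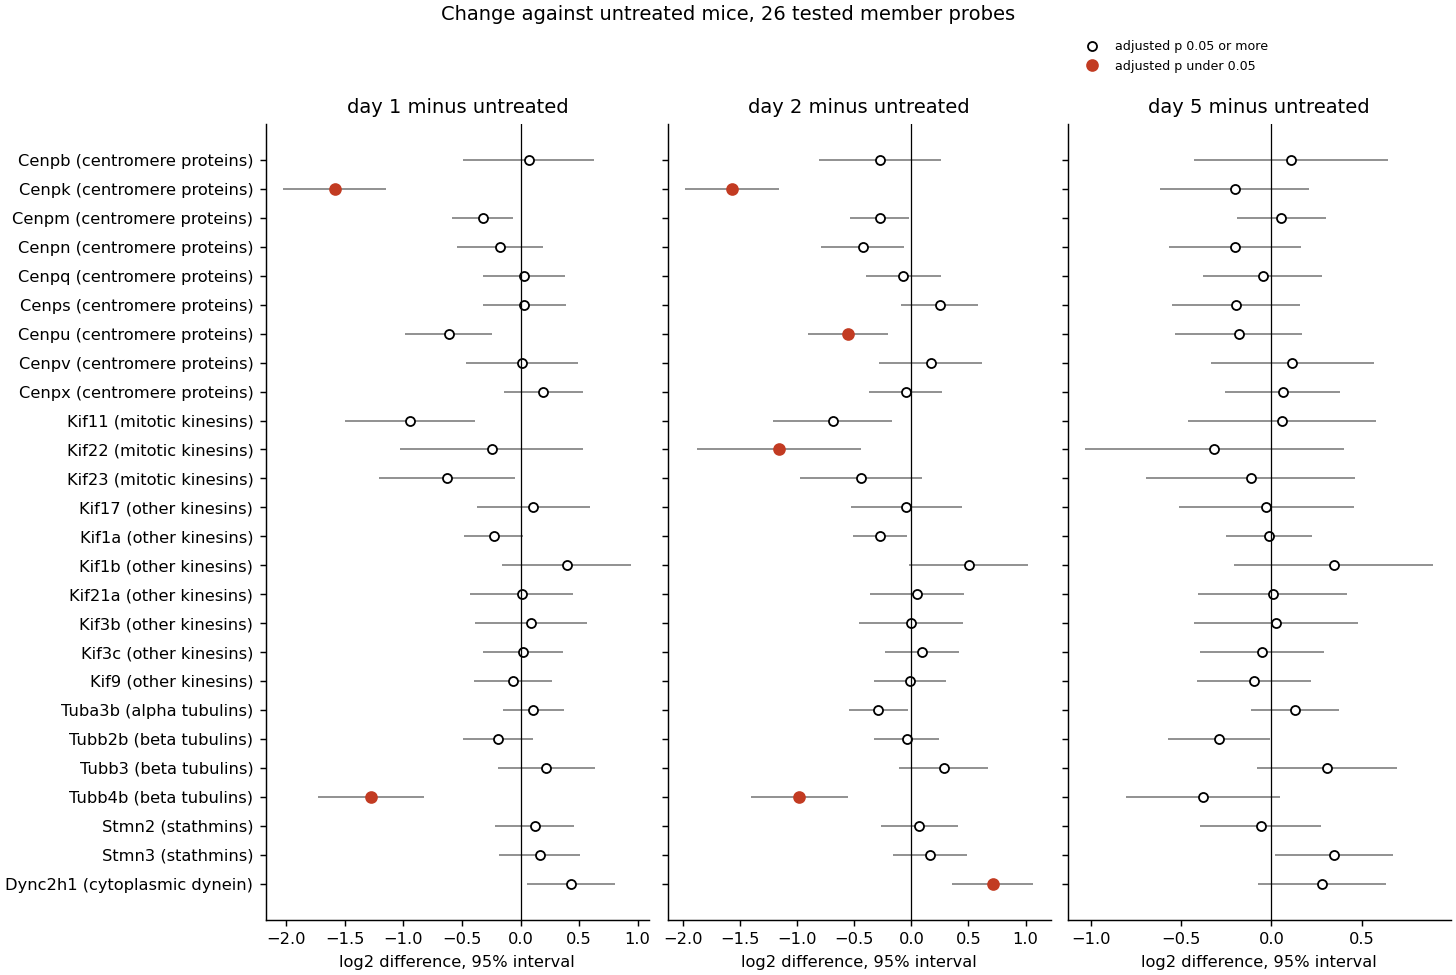
Difference in log2 ratio from untreated mice (horizontal axis, with its own range in each panel) for the 26 tested members at days 1, 2 and 5, with 95% intervals from limma; red marks adjusted p under 0.05. Cenpk and Tubb4b are marked at days 1 and 2, Cenpu, Kif22 and Dync2h1 at day 2 only in this fit, and no member at day 5.

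Kinesins outside the mitotic set numbered 13, and none of the 7 tested passed in any comparison. Their day 2 differences from untreated mice ran from -0.27 to 0.50 with a median of -0.004. Kif1a, a carrier of synaptic vesicle precursors in neurons, was at 0.03, -0.21, -0.13, -0.20 and -0.17 in untreated mice, -0.38, -0.42, -0.32 and -0.35 at day 1, and -0.24, -0.42, -0.34, -0.78 and -0.26 at day 2. Its treated mice of both days lay below all untreated mice, but the differences were small, -0.23 ± 0.12 at day 1 and -0.27 ± 0.11 at day 2 (adjusted p = 0.433 and 0.165). Its technical columns correlated at 0.35 over mice, and the value of untreated mouse 4 averaged 0.08 and -0.48. Kif1b, which moves mitochondria and vesicles, had the highest day 2 difference of the 7, 0.50 ± 0.25 (adjusted p = 0.259), and its untreated group held 1 mouse at -1.69. Kif3b, a subunit of the kinesin-2 motor that carries cargo into cilia, differed by -0.00 ± 0.22 at day 2, with a 95% interval of -0.46 to 0.45. Stmn2 and Stmn3, stathmins known mostly from neurons, differed by 0.07 ± 0.16 and 0.16 ± 0.16 at day 2 and passed nowhere.

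Dync2h1 was the member that rose. It encodes the heavy chain of cytoplasmic dynein 2, the motor that returns cargo from the tip of a cilium to its base, and is distinct from the heavy chain Dync1h1 of the dynein that works in the cell body and at kinetochores. Its log2 ratios were 0.14, -0.11, 0.25, -0.60 and 0.19 in untreated mice, 0.34, 0.89, 0.04 and 0.36 at day 1, 0.42, 0.95, 0.59, 0.62 and 0.85 at day 2, and 0.46, 0.31, 0.24, 0.17 and 0.10 at day 5. All day 2 mice lay above all untreated mice, and the groups of days 1 and 5 overlapped the untreated one. The difference was 0.71 ± 0.17 at day 2 (1.64-fold, limma adjusted p = 0.011), 0.43 ± 0.18 at day 1 (adjusted p = 0.272) and 0.28 ± 0.17 at day 5 (adjusted p = 0.923), each against untreated mice. Leaving out any 1 mouse kept the call, but without the 3 mice of low technical correlation the day 2 difference was 0.49 and did not pass (adjusted p = 0.121), and with quantile normalization it was 0.56 (adjusted p = 0.0891).

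The promoters of the 5 members that fell or rose at day 2 are shown because cell cycle genes are often described by CCAAT boxes and by the cell cycle genes homology region, CHR, near their start. Each is the 300 bases from 250 before to 50 after a RefSeq start in GRCm38.p6, read 5′ to 3′ on the gene's strand, with matches in capitals. The CCAAT letters were searched on both strands, and a match on the other strand reads ATTGG. For the CHR the letters searched, also on both strands, were TTTGAA and, as its variant, TTCGAA. No 2 matches share a base. Cenpk lies at chr13:104228716-104229015 on the plus strand for the start shown, 1 of 3 listed. Cenpu lies at chr8:46551819-46552118 on the plus strand. Kif22 lies at chr7:127042371-127042670, Tubb4b at chr2:25224653-25224952 and Dync2h1 at chr9:7177009-7177308, all on the minus strand.
Cenpk: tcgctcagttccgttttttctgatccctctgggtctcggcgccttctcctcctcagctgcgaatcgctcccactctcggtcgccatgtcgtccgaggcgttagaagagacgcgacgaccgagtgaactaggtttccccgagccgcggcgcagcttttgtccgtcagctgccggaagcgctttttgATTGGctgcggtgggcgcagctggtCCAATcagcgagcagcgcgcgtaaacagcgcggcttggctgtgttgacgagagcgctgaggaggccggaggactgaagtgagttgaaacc
Cenpu: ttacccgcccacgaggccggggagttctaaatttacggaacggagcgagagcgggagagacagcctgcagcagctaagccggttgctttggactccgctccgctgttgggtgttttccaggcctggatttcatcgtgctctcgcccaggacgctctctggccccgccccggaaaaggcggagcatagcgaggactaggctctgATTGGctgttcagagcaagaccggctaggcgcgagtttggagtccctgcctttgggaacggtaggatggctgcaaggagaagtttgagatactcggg
Kif22: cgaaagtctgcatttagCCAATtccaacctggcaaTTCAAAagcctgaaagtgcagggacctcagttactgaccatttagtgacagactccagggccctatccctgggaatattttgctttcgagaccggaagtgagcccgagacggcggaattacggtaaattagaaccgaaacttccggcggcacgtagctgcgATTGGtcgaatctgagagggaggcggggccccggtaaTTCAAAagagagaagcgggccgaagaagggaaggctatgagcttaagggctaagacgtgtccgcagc
Tubb4b: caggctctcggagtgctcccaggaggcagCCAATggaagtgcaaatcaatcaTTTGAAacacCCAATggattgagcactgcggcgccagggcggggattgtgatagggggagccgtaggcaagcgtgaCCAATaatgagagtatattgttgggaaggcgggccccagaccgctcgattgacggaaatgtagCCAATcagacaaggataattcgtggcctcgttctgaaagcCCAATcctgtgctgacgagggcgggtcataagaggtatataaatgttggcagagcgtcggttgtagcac
Dync2h1: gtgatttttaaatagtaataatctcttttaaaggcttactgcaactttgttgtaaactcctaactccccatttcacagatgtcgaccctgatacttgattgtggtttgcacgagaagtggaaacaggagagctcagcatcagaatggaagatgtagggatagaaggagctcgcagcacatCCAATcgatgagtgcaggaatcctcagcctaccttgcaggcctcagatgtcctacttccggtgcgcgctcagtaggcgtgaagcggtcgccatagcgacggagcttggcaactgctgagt

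In the window shown, Cenpk held CCAAT letters 65 and 40 bases upstream of the start, on opposite strands. The windows at its other listed starts held them once each, 159 and 238 bases upstream. Cenpu held them once, 47 bases upstream. Kif22 held them 233 and 54 bases upstream and the TTTGAA letters, read from the other strand, 215 and 17 bases upstream. Tubb4b held 5 CCAAT runs, at 221, 188, 122, 59 and 19 bases upstream, and TTTGAA 198 bases upstream. Dync2h1, the member that rose, held CCAAT once, 70 bases upstream. RefSeq windows were found for 24 of the 26 tested member genes, counting a gene if any of its starts had a match. CCAAT letters were in all 4 genes that fell, in 11 of the 20 tested members that did not fall, and in 37.4% of all 32851 promoter windows counted singly. TTTGAA or TTCGAA letters were in 2 of the 4, in 6 of the 20, and in 19.2% of all windows. A match of letters is a description of the sequence, and binding was not measured.

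Other genes of the spindle and kinetochore fell as well, on a list chosen with earlier results of these data known. Its counts are therefore a description and no independent test. Of 56 listed genes, 22 were tested on 22 probes: 7 fell at day 1, 10 fell and 1 rose at day 2, none passed at day 5 in the limma fit (each day against untreated mice), and 10 rose at day 5 against day 2. Over all probes 1.39% fell at day 1, 5% fell and 3.31% rose at day 2, and 3.8% rose at day 5 against day 2. The median log2 difference of the list from untreated mice was -0.44 at day 1, -0.64 at day 2 and -0.09 at day 5. Over all probes that median was 0.02, 0.007 and 0.01. Sgo1, the protector of centromeric cohesion, fell by 2.07 ± 0.22 on the log2 scale at day 2 (4.19-fold, adjusted p = 2.38e-06). Nusap1, which bundles spindle microtubules, fell by 2.03 ± 0.26 (adjusted p = 2.61e-05), and Cdca8, a subunit of the chromosomal passenger complex, fell by 1.87 ± 0.26 (adjusted p = 7.54e-05). Prc1, which crosslinks the midzone, fell by 1.57 ± 0.19 (adjusted p = 1.51e-05).

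Nuf2 and Spc24, subunits of the outer kinetochore complex that grips the microtubule end, fell by 1.53 ± 0.19 (adjusted p = 2.22e-05) and 1.24 ± 0.20 (adjusted p = 0.000326) at day 2. The day 2 difference of Cenpk, -1.57, lay close to that of Prc1 and Nuf2 on this scale. Klc4, a kinesin light chain that links kinesin-1 to cargo, was the 1 gene of the list that rose at day 2 (0.56 ± 0.17, adjusted p = 0.0486); it is named after its value was seen. The dynein and dynactin partners of the dynein subunits, 10 genes on 12 probes, and 6 tubulin folding and modification genes passed nowhere against untreated mice. At day 2, 8 red cell precursor and 6 replication probes fell beside the spindle genes, and at day 1 it was 5 and 2. Their part in the result of the spindle genes was not tested.

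**Figure D4:**
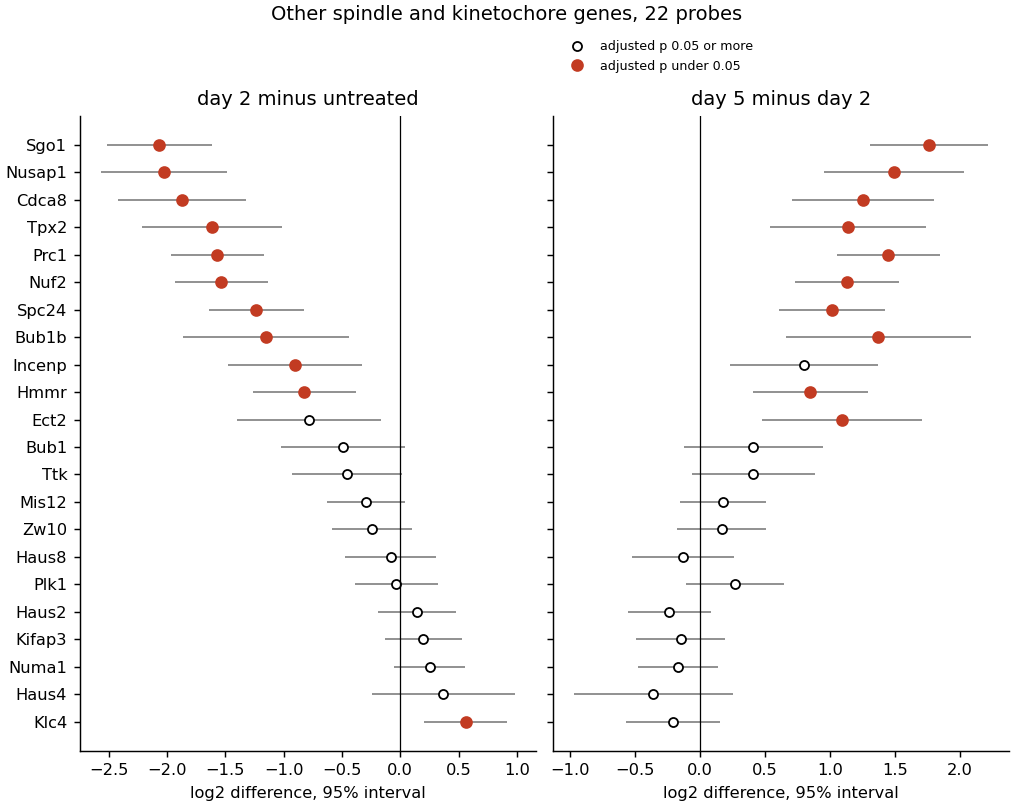
Difference in log2 ratio for the 22 tested genes of the spindle and kinetochore list, at day 2 minus untreated and at day 5 minus day 2, with 95% intervals from limma; red marks adjusted p under 0.05. In the first panel 10 genes lie below 0 and Klc4 above it among those marked, and in the other panel 10 marked genes lie above 0.

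The 25 members without a test were 4 centromere proteins, 3 mitotic kinesins, 6 other kinesins, 3 alpha and 3 beta tubulins, 2 stathmins and 4 dynein subunits. Of these, 5 (Kif4, Kif3a, Kif5c, Stmn1 and Dync1i2) had no value on any array, and 20 had some. Members just inside the filter were Cenpb and Kif17 with 3 untreated mice, Kif22 with 3 day 1 mice, and Kif23 with 3 mice at day 1 and at day 5. Just outside it were 5 members with 2 or more mice in each group, Kif20a, Cenpa, Tuba8, Tubb4a and Dync1h1, and with that looser filter limma called none of them. Cenpa, the histone variant that marks the centromere, differed by -0.26 ± 0.21 at day 2 from untreated mice in that fit (adjusted p = 0.532).

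Cenpp, a partner of Cenpu in the CENP-O complex, had a value in a single untreated mouse, 0.30. At day 1 it was at -0.18, -1.36 and -0.06 in 3 mice, at day 2 at -2.10, -1.14 and -1.88 in 3 mice, and at day 5 at 0.08, -0.00, -0.23 and 0.45 in 4 mice. The day 5 mice lay well above the day 2 mice. In a fit of days 5 and 2 alone, with 9022 probes measured in 3 or more mice of both, which was added after the data were seen, Cenpp rose by 1.78 ± 0.25 (3.43-fold, limma adjusted p = 0.00363). It was the 1 member called of 6 that this fit added, and 3.8% of all probes in it were called. In the same kind of fit for day 2 against day 1 its difference of -1.17 ± 0.38 did not pass (adjusted p = 0.822).

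**Figure D5:**
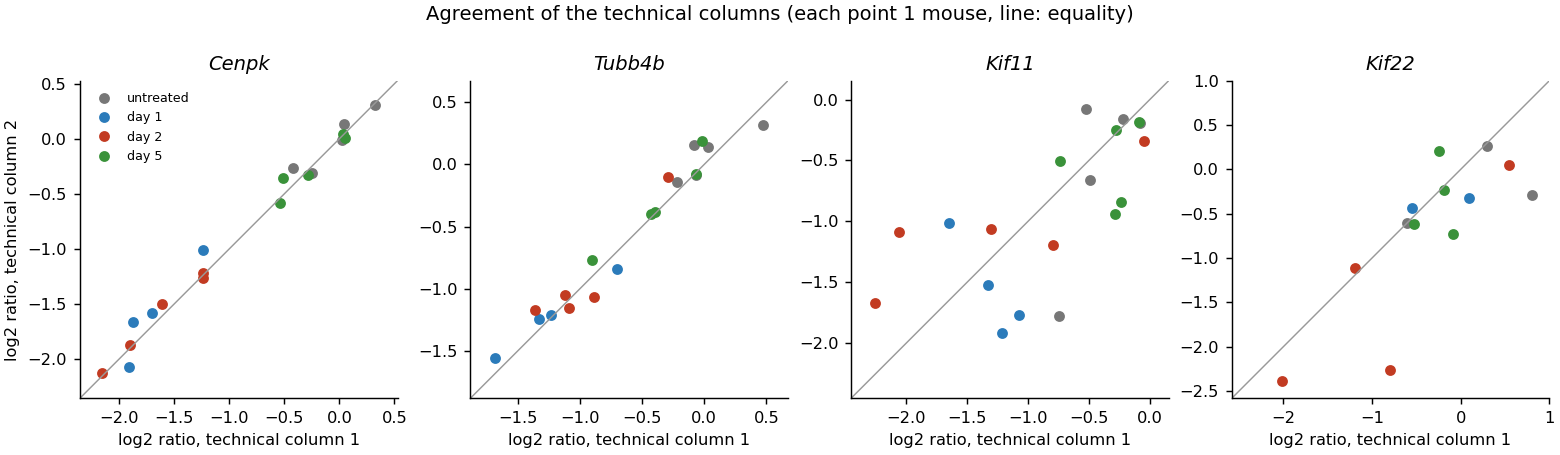
Log2 ratio in the first technical column (horizontal) against the other column (vertical) of each mouse for Cenpk, Tubb4b, Kif11 and Kif22, with the line of equality. Points of Cenpk and Tubb4b lie close to the line, with r of 0.992 and 0.979 over mice and median differences between columns of 0.0446 and 0.110. Those of Kif11 and Kif22 scatter more, with r of 0.670 and 0.784 and median differences of 0.402 and 0.369.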

How the data were processed

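Dual-colour arrays measured spleen RNA (Cy5) against a pool of bone marrow RNA (Cy3), with no dye swap; per the labels' protocols RNA was extracted with RNeasy Midi and amplified with MessageAmp II. The pool is described as untreated, while its treatment field names cyclophosphamide. The authors deposited normalized log ratios, taken as log2 of spleen over pool; the log base, background correction, filter and normalization steps were not stated in the sources used here. The deposited log2 values are bounded at -6 and 6, which 7 values reach, and array medians lie between -0.0212 and 0.0132. The array number limits the precision: the median SE of a difference was 0.174 to 0.183 over comparisons.

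Technical columns with a value were averaged per mouse, and probes with a value in 3 or more mice of each group kept (8319, 61.9%). A model of group means with 1 spread for all 4 groups was then run in limma 3.58.1 (lmFit and eBayes, R 4.3.3), two-sided, with Benjamini-Hochberg adjustment over all probes at 0.05, for 5 comparisons. The fit was tested on simulated data. Gene names came from the platform's annotation, and 10028 of 10032 single-gene probes were matched to a RefSeq (GRCm38.p6) symbol, which was then used. A further 170 probes list several genes and 3241 none. Figures used matplotlib 3.10.9.

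All called members are named. In each role, members called nowhere could be named up to 4 by smallest and 2 by largest p, and further ones by range. Of the spindle list, up to 6 genes of smallest p are named. Members and lists were chosen with earlier results of these data known. Alternatives covered scaling, technical columns, filters, variance model, weights, samples fitted, a replicate block and leaving out each mouse. The main fit used no pairing by replicate number. Between mice of the same number, the 27 correlations of deviations averaged -0.00472 (-0.249 to 0.325), and 4 were over 0.1. That average cannot tell whether the numbers pair some of the mice. No slide or scan batch is given, so none was tested.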

Additional observations from a re-analysis of the deposited data

Results flagged for a closer look

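In 4 of 99 groups of 4 or 5 mice, a single mouse stood apart from the others by Dixon's criterion, which chance alone meets in about 5% of groups. Tubb4b was at -0.196 in day 2 mouse 3, and its other day 2 mice were at -1.27 to -0.98; without that mouse the day 2 difference from untreated mice was -1.17 and stayed called. Cenpn was at -0.813 in day 5 mouse 4, against -0.25 to -0.20 in the other day 5 mice with a value. Cenpv was at -1.03 in untreated mouse 3, against -0.04 to 0.37 in the other untreated mice, and at -0.602 in day 5 mouse 5, against 0.07 to 0.27 in the others.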

How the results depend on the processing

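The number of members called at day 2 against untreated mice was 5. It became 2 with quantile normalization, 2 with arrays at equal spread and 2 without the 3 mice of low technical correlation, and 3 with technical column 2 alone, 3 with only the groups compared and 3 in that fit with its own filter. With a replicate block it was 3, Cenpu and Kif22 losing their calls, and whether the numbers pair mice was not settled. Leaving out 1 mouse gave 3 to 5. The causes of these shifts were not tested. Cenpk and Tubb4b kept their calls at days 1 and 2 in all 32 alternatives. At day 1 the count was 2 to 3, at day 5 and between days 2 and 1 it was 0 throughout, and at day 5 against day 2 it was 1 to 3 when 1 mouse was left out and 2 with only those groups compared and their own filter. Over all probes, the day 1 count of 194 was 117 at equal spread, 350 with array weights, 113 without the 3 mice, and 99 and 109 without day 1 mouse 2 or 4. The day 2 count of 691 was 338 with quantile normalization, 353 at equal spread, 449 and 441 with only the groups compared, and 409 without the 3 mice. At day 5 it was 0 to 6, between days 2 and 1 0 to 20, and the day 5 against day 2 count of 441 was 83 with quantile normalization and 144 at equal spread. None of the 8 called member differences changed sign in these alternatives. Missing values limit the set, since 25 of 51 members could not be tested.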

Other observations

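Day 2 mouse 3 stood high in Tubb4b (-0.20) and Kif11 (-0.19), above the other day 2 mice in both, yet it was the lowest day 2 mouse in Cenpk (-2.14). It had 6554 values, the fewest of the 19 mice, and technical columns that correlated at 0.961. Among members with too few values for a test, Kif20a, a motor of the late spindle midzone, was at -0.15, -0.04 and 1.43 in 3 untreated mice. Kif5b, a conventional kinesin heavy chain, was at 0.10, 0.93, 0.53 and 1.22 in 4 day 5 mice and at -2.04 in the 1 untreated mouse with a value. Of these, 0.93, 1.22 and -2.04 came from 1 technical column each. Tubb2a had a single day 1 value, -3.02, from 1 technical column.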
